A study of Homo sapiens with 6 samples.

Results

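Of 39 zinc finger genes of chromosome band 19q13.4, 33 had a probe set of their own on the array and are described here, among 19775 genes measured. The list was given by name and holds genes of the KRAB zinc finger family around that band. Each gene was represented by the brightest probe set (mean of 6 arrays) that names it alone. ZNF534, ZNF761, ZNF841, ZNF845 and ZNF888 had none that names them, ZNF816 had 1 that it shares with the readthrough gene ZNF816-ZNF321P, and these 6 were not analysed. ARPE-19 cells, an established human line from retinal pigment epithelium, received 10 µM SRPIN803 for 4 h in 3 samples or the solvent, 0.1% DMSO, for 4 h in 3 others. SRPIN803 is known as an inhibitor of the splicing factor kinase SRPK1 and of protein kinase CK2. Nothing in the labels tells if the replicates were grown apart, and the p-values therefore cover sample-to-sample spread that could be purely technical.

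KRAB zinc finger proteins bind DNA through arrays of C2H2 zinc fingers, and their KRAB domain recruits the corepressor TRIM28 (KAP1). TRIM28 in turn brings the histone methyltransferase SETDB1 and HP1 proteins, and the target, often a transposable element, is packed into heterochromatin. The family expanded by tandem duplication, most of all on chromosome 19, so neighbouring genes are close relatives in sequence.

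The 6 arrays had medians between 5.25 and 5.28 on the log2 scale and correlated at 0.994 to 0.998 over all probe sets. Of 10 markers of pigment epithelium, MITF, its master transcription factor, was called higher (0.35 ± 0.07, limma's adjusted p = 0.0312). The visual cycle enzyme gene RPE65 was dim, at a mean level of 2.33. Of the 10 markers, 4 lay at or above the median level of all genes, 6.53. No gene was called among 5 epithelial, 6 mesenchymal, 5 endothelial and 3 measured of 5 immune markers (limma, also 0 at an unadjusted p under 0.05). Over all genes 5.84% were called, so counts of 0 in lists this short are near the background.

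Few of these zinc finger genes passed the test between SRPIN803 and DMSO. With 3 arrays per group, a member that did not pass may still have changed (ZNF613, 95% interval 0.04 to 0.59). ZNF813, ZNF610 and ZNF615 rose, by 1.24 to 1.36 times, and no member passed the test in the other direction. These 3 of 33 members are 9.09%, where 3.46% of all genes were called higher. Of all genes, 2.37% were called lower, against 0 of 33 members by limma. At limma's unadjusted p under 0.05, 9 of 33 members were higher and 0 lower, where 2332 and 1522 of all 19775 genes were. The median log2 change was 0.09 over the members and 0.02 over all genes. A change above 0 was found in 25 of 33 members (75.8%) and in 56.1% of all genes. Without DMSO replicate 1, ZNF320, ZNF600, ZNF611, ZNF665 and ZNF677 turned below 0 (-0.0044 to -0.045), and none turned above it. In bulk RNA, fewer cells with a transcript and less of it per cell cannot be told apart.

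ZNF813 had log2 values of 5.98, 6.04 and 6.02 in DMSO and of 6.35, 6.39 and 6.62 in SRPIN803. Every SRPIN803 array lay above every DMSO array, with SRPIN803 replicate 3 the highest. Its log2 change of 0.44 ± 0.08, a fold of 1.36 (1.19 to 1.55), was the largest of the members (limma's adjusted p = 0.0249). ZNF610 measured 5.74, 5.93 and 5.91 in DMSO and 6.14, 6.29 and 6.39 in SRPIN803. Its groups did not overlap either, and DMSO replicate 1 was the lowest array. The log2 change was 0.41 ± 0.09, a fold of 1.33 (1.16 to 1.53), with limma's adjusted p = 0.0343. ZNF615 measured 7.26, 7.44 and 7.42 in DMSO and 7.63, 7.76 and 7.68 in SRPIN803. The groups did not overlap, again with DMSO replicate 1 the lowest. The log2 change was 0.31 ± 0.07, a fold of 1.24 (1.11 to 1.40), with limma's adjusted p = 0.0461.

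**Figure D1:**
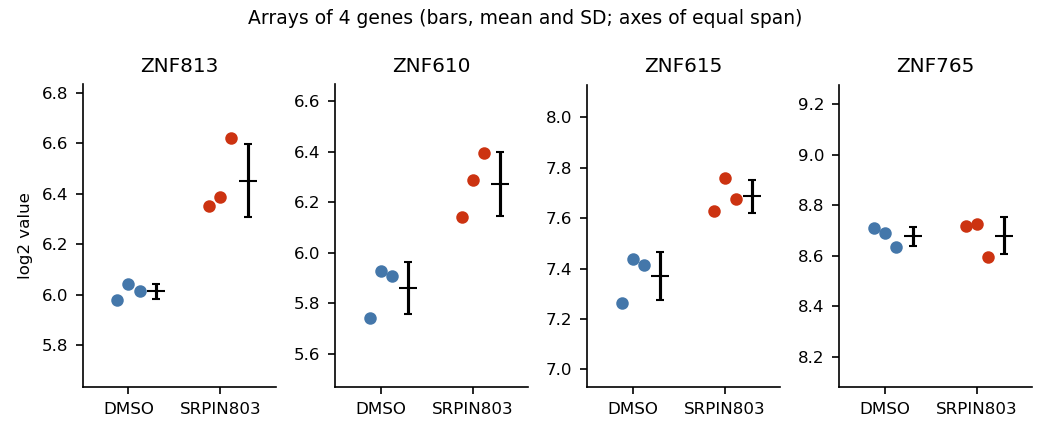
Log2 values (y axes, all of the same span) of the 3 DMSO and 3 SRPIN803 arrays for the called genes ZNF813, ZNF610 and ZNF615 and for ZNF765; points are arrays, bars mean and SD. The groups lie apart in the 3 called genes and overlap in ZNF765, with means of 8.68 and 8.68.

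These calls rested on few arrays. Without DMSO replicate 1, 2 or 3 no member was called (0 of 33 by limma in each case). Without SRPIN803 replicate 1, 2 or 3 the counts were 2, 1 and 1. Calls over all 19775 genes fell as well, from 1154 to 459, 404 and 324 without DMSO replicate 1, 2 and 3. They were 687, 660 and 533 without SRPIN803 replicate 1, 2 and 3. ZNF813 stayed called without any 1 SRPIN803 array, ZNF610 only without SRPIN803 replicate 1, and ZNF615 in none of the 6 fits, with adjusted p up to 0.0960, 0.106 and 0.127. The log2 changes kept their sign, at 0.36 to 0.49 for ZNF813, 0.35 to 0.48 for ZNF610 and 0.26 to 0.35 for ZNF615. ZNF615 also lost its call with array medians subtracted (adjusted p = 0.0592) and without _s_at and _x_at probe sets (0.0550). With the replicate number as a block in the fit, ZNF813 and ZNF615 lost their calls. That left 1 of 33 members called, and 689 of all 19775 genes.

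The other members with the largest changes were also higher in SRPIN803 but did not pass the test. ZNF613, with 4.02, 4.38 and 4.32 in DMSO and 4.45, 4.74 and 4.48 in SRPIN803, did not overlap between groups. Its log2 change was 0.32 ± 0.12 (limma's adjusted p = 0.188). ZNF415, whose product is reported to repress AP-1 and p53 reporters, measured 5.56, 5.56 and 5.81 in DMSO and 5.75, 5.91 and 6.12 in SRPIN803. The groups overlapped, since DMSO replicate 3 lay above SRPIN803 replicate 1, and the log2 change was 0.28 ± 0.11 (adjusted p = 0.219). ZNF432, read by an _s_at probe set, measured 7.39, 7.52 and 7.46 in DMSO and 7.58, 7.85 and 7.67 in SRPIN803. Its groups did not overlap, and the log2 change was 0.25 ± 0.08 (adjusted p = 0.151).

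ZNF350 encodes ZBRK1, a repressor that binds BRCA1. It measured 6.12, 6.42 and 6.46 in DMSO and 6.46, 6.66 and 6.59 in SRPIN803. The groups overlapped, with DMSO replicate 3 level with SRPIN803 replicate 1, and the log2 change was 0.23 ± 0.10 (limma's adjusted p = 0.268). ZNF616 measured 4.55, 4.70 and 4.75 in DMSO and 4.77, 4.90 and 5.00 in SRPIN803. Its groups lay next to each other without overlap, and the log2 change was 0.23 ± 0.08 (adjusted p = 0.183).

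A second tier of 7 members had log2 changes up to 0.22, and none was called. They were ZNF578 (0.22 ± 0.14), ZNF468 (0.19 ± 0.07), ZNF175 (0.17 ± 0.08), ZNF766 (0.17 ± 0.07), ZNF614 (0.16 ± 0.07), ZNF577 (0.15 ± 0.10) and ZNF83 (0.14 ± 0.09). ZNF175, also known as OTK18, is induced in HIV-infected macrophages, and ZNF331, at 0.09 ± 0.11, is an imprinted gene rearranged in thyroid adenomas. Nearer to 0 were ZNF528 (0.09 ± 0.09), ZNF836 (0.09 ± 0.08), ZNF677 (0.08 ± 0.12), ZNF701 (0.07 ± 0.06), ZNF320 (0.07 ± 0.07), ZNF665 (0.06 ± 0.09), ZNF600 (0.05 ± 0.09), ZNF611 (0.01 ± 0.10) and ZNF765 (0.0032 ± 0.063). ZNF677 is silenced by promoter methylation in lung cancer, and ZNF611 binds SVA retrotransposons. For ZNF765 the 95% interval of the change ran from -0.14 to 0.15.

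Below 0 lay 8 members, none of them called. ZNF808, whose loss in people is known to cause pancreatic agenesis, was at -0.18 ± 0.16. ZNF880 was at -0.14 ± 0.12, ZNF480 at -0.14 ± 0.06, ZNF28 at -0.14 ± 0.09 and ZNF347 at -0.11 ± 0.07. ZNF649, a repressor of the serum response element, was at -0.11 ± 0.12. ZNF160, known to repress TLR4 in gut epithelium, was at -0.05 ± 0.13, and the pseudogene ZNF702P at -0.02 ± 0.06. Among these, ZNF480, named here by array after its values were seen, alone had groups that did not overlap, with 4.49, 4.42 and 4.40 in DMSO and 4.26, 4.26 and 4.36 in SRPIN803 (limma's adjusted p = 0.261).

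Groups did not overlap in 10 members, 9 of them higher in SRPIN803 (27.3%, where 15.2% of all genes did so) and 1 lower (3.03%, where 10.4% did). The 9 were ZNF813, ZNF610, ZNF613, ZNF615, ZNF432, ZNF616, ZNF468, ZNF766 and ZNF614. The arrays differed in the members' general level. The median deviation of the members from their own means was -0.16 in DMSO replicate 1, against 0.0011 and -0.05 in DMSO replicates 2 and 3 and 0.0092, 0.06 and 0.08 in SRPIN803 replicates 1, 2 and 3. Over all genes the same medians lay between -0.01 and 0.02. DMSO replicate 1 was the lowest. The members' median log2 change was 0.11 without it, and also 0.10 to 0.12 without any other 1 array, against 0.09 with all 6. This median therefore does not show what DMSO replicate 1 contributed.

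**Figure D2:**
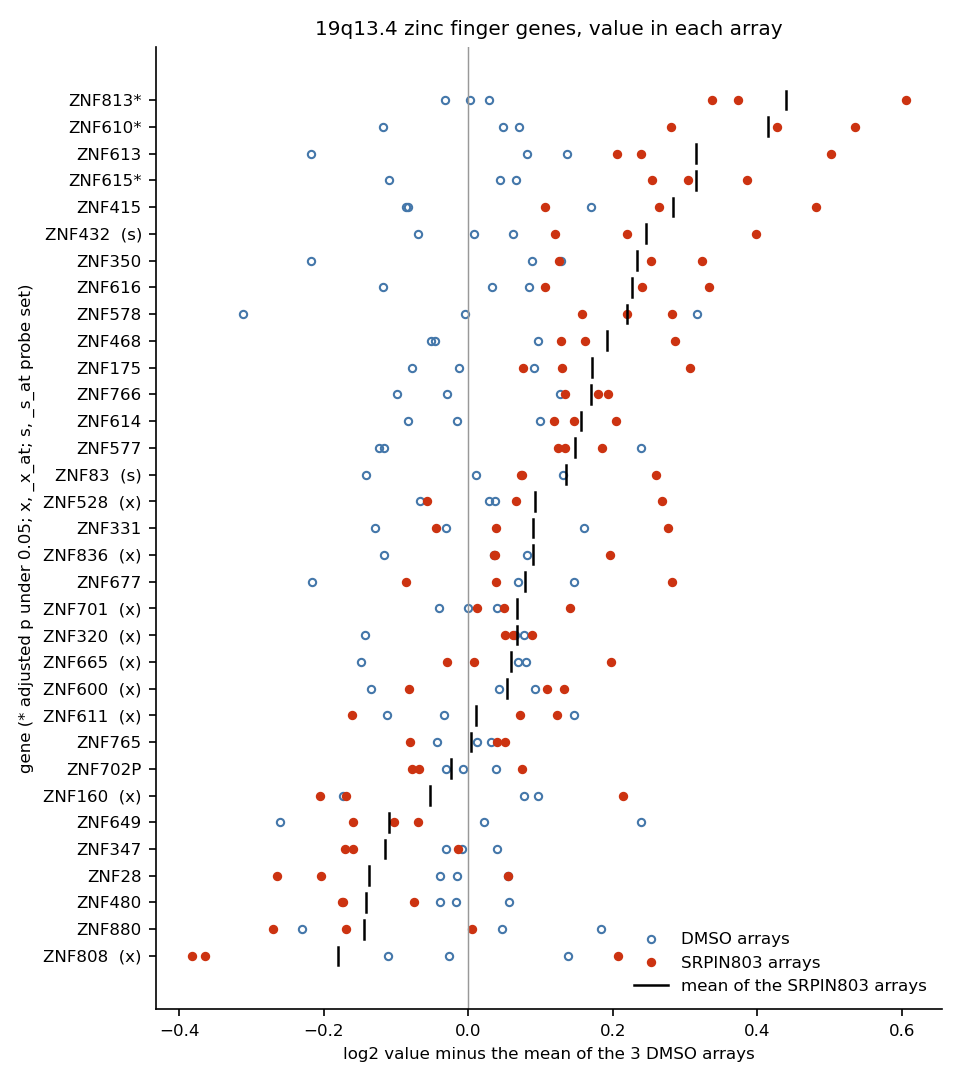
Log2 value of each member in each array minus its DMSO mean (x axis), with genes ordered by their change (y axis); open points are DMSO, filled points SRPIN803, black marks SRPIN803 means, and x and s mark _x_at and _s_at probe sets. Changes run from -0.18 for ZNF808 to 0.44 for ZNF813, and 3 genes carry the mark of an adjusted p under 0.05.

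The members spanned dim and bright signals. Their median level was 6.45, and 16 of 33 lay at or above the median level of all genes, 6.53. Of these 16, 1 was called (ZNF615; 6.25%, where 4.89% of all genes at such levels were called higher) and 15 had a change above 0 (93.8%, against 55.3%). Among these 15 were ZNF320, ZNF600, ZNF611, ZNF665 and ZNF677, which turned below 0 without DMSO replicate 1. Of the 17 dimmer members, 2 were called (ZNF813 and ZNF610; 11.8%, against 2.03%) and 10 had a change above 0 (58.8%, against 57.0%). Across the 33 members level and change had a rank correlation of 0.10, and ZNF28, at a level of 2.31, was the dimmest.

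The members are close relatives in sequence, and probe set names carry a suffix that bears on this. The suffix _x_at marks probe sets in which some probes also match other transcripts, _s_at those whose probes match several transcripts, and _a_at those for variants of 1 gene. An _x_at probe set was the brightest for 9 of 33 members (ZNF160, ZNF320, ZNF528, ZNF600, ZNF611, ZNF665, ZNF701, ZNF808 and ZNF836), and for 1147 of all 19775 genes. How much of this signal came from relatives was not tested. None of these 9 was called by limma (0 at an unadjusted p under 0.05), in none did the groups lie apart, and their changes ran from -0.18 to 0.09 with a median of 0.06. Over all genes read by _x_at probe sets, 3.49% were called and 20.4% had groups apart, so a count of 0 of 9 called is near the background. The 22 members read by plain _at probe sets held all 3 calls (13.6%, where 3.85% of all such genes were called higher). In 8 of the 22 (36.4%) the groups lay apart with SRPIN803 higher, against 15.7% of all such genes, and the median was 0.16. The 2 read by _s_at probe sets, ZNF83 and ZNF432, were not called. Without _x_at probe sets 29 members could be measured, with a median change of 0.14 and the same count of 3 calls.

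Of the 33 members, 17 had several probe sets, giving 57 in all, of which 41 had a change above 0. Over all probe sets, 1.64% were called higher and 1.39% lower by limma. Among the 57, 1 was called, that of ZNF813. Probe sets of 1 gene lay on both sides of 0 in 5 members, ZNF83, ZNF160, ZNF350, ZNF577 and ZNF677. The widest split was in ZNF83. Its _s_at probe set was at 0.14 ± 0.09, while the other read 7.16, 7.29 and 7.25 in DMSO and 6.98, 6.13 and 6.88 in SRPIN803. All SRPIN803 arrays lay below all DMSO arrays there, replicate 2 far below, and the log2 change was -0.57 ± 0.20 (limma's adjusted p = 0.211 over all probe sets), or -0.30 without SRPIN803 replicate 2.

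ZNF578 went the other way. Its dimmer probe set read 2.94, 3.04 and 3.32 in DMSO and 3.49, 3.70 and 3.49 in SRPIN803, with no overlap. The log2 change there was 0.46 ± 0.11 (limma's adjusted p = 0.0813 over all probe sets), against 0.22 ± 0.15 in the brightest one in the same fit. With the mean of all probe sets per gene, ZNF578 was called as well (log2 change 0.34, adjusted p = 0.0244). All 3 probe sets of ZNF614 were higher (0.16, 0.32 and 0.10), as were both of ZNF616 (0.23 and 0.20), and none was called. For ZNF765, the _x_at probe set gave 0.16 ± 0.07 without overlap, where the brightest gave 0.0032. ZNF813, ZNF610 and ZNF615 each had a single probe set, so their changes could not be compared within the gene. ZNF83, ZNF578 and ZNF765 were picked for these values after the values were seen.

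**Figure D3:**
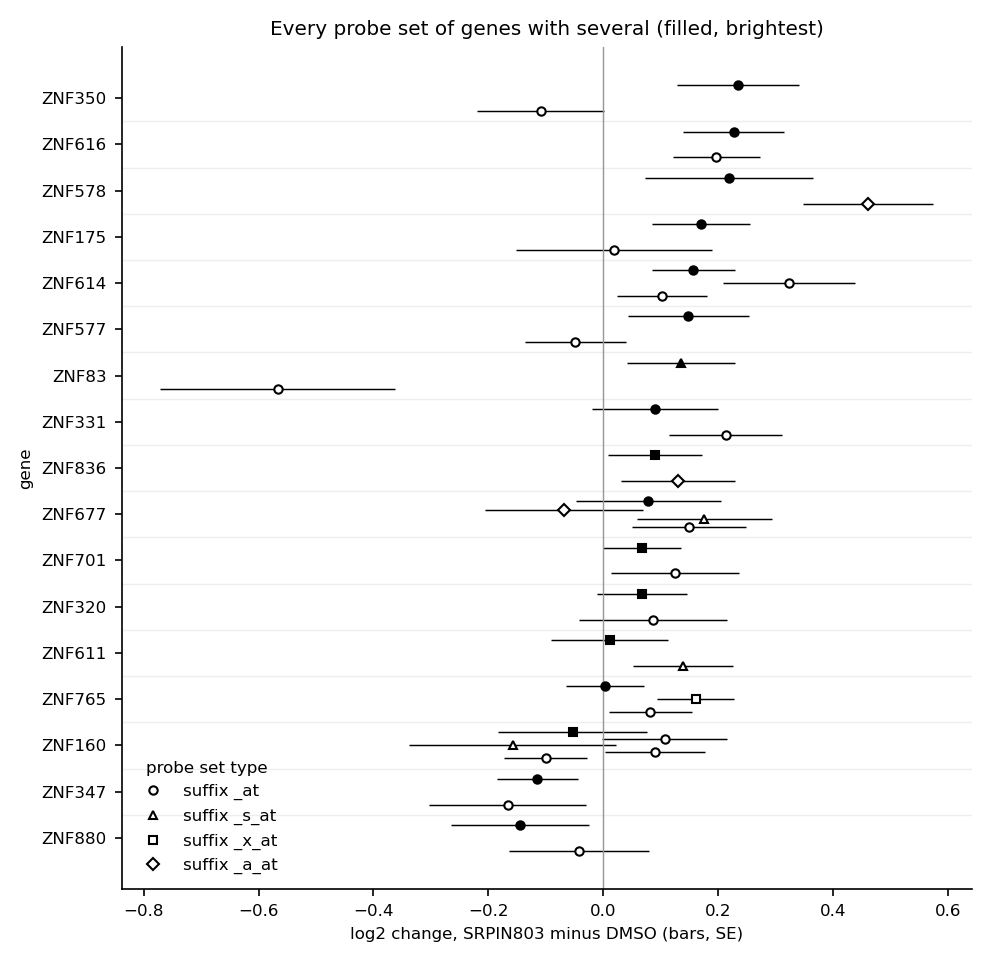
Log2 change of every probe set (x axis, bars are SE) of the 17 members with several; filled symbols are the brightest probe set, and shapes give the suffix. Most genes have probe sets on 1 side of 0, and the probe set of ZNF83 at -0.57 lies farthest from its partner.

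In the order of the genes along chromosome 19 (RefSeq, GRCh38.p14), a run of values above 0 lay near the start of the cluster. From ZNF613 through ZNF350, ZNF615, ZNF614, ZNF432, ZNF616 and ZNF836 to ZNF766, all 8 measured genes in a row had changes above 0, from 0.09 to 0.32. ZNF841, within this run, was not analysed. The next genes alternated, with ZNF480 at -0.14, ZNF610 at 0.41 and ZNF880 at -0.14. ZNF610 and ZNF880 overlap in the RefSeq annotation, as do ZNF600 and ZNF28, which were at 0.05 and -0.14. At the far end, ZNF765 was at 0.0032, ZNF813 at 0.44 and the last gene, ZNF331, at 0.09. The run was picked out after the values were seen, and no test was made of it.

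**Figure D4:**
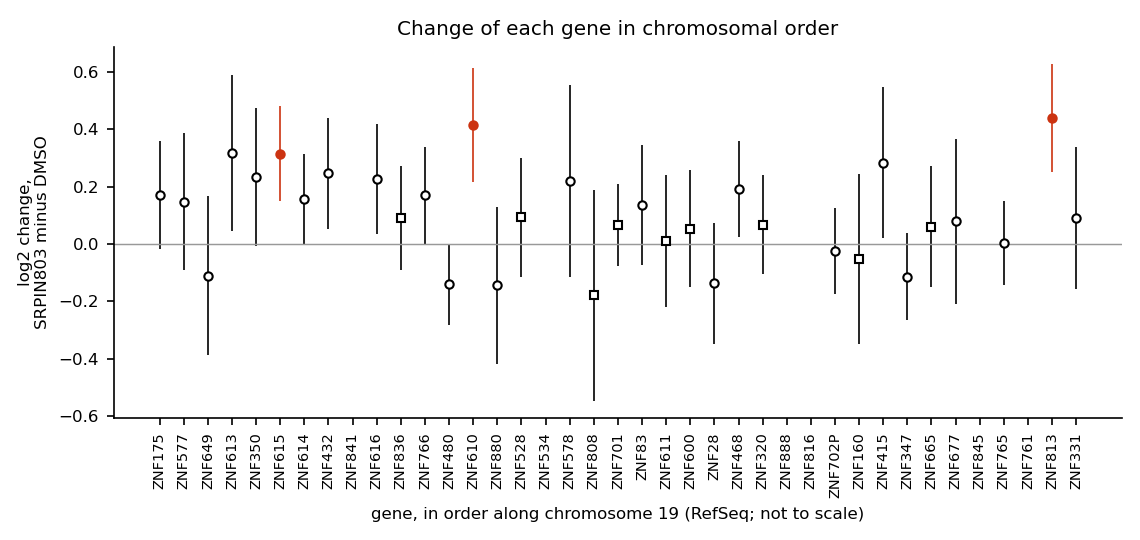
Log2 change of each gene (y axis, bars are 95% intervals) in the order of the genes along chromosome 19 (x axis, not to scale); filled points are called, squares are _x_at probe sets, and names without a point were not measured. The 8 measured genes from ZNF613 to ZNF766 all lie above 0, and the called genes ZNF615, ZNF610 and ZNF813 are spread over the cluster.

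Genes of other kinds lie among the members, and their values are given here. RefSeq places 81 other genes between ZNF175 and ZNF331, of which 14 were measured, 11 of them with no zinc finger symbol. Of these 11, 0 were called by limma (1 at an unadjusted p under 0.05, higher), with a median log2 change of 0.05. Most were dim, with a median level of 3.82 against 6.45 for the members. Only 1 of the 11 lay at or above the median level of all genes, 6.53. Of all genes below that level 2.53% were called, so a count of 0 of 11 is near the background. SPACA6, a sperm membrane protein gene, was at 0.43 ± 0.11 (adjusted p = 0.0613) and LINC01530 at 0.30 ± 0.15 (adjusted p = 0.326).

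Promoters of members that resemble each other are printed beside the values of those genes. RefSeq promoter windows of 300 bases, 250 before and 50 after the transcript start, were at hand for 31 members, 26 of them measured. Among 465 pairs of the 250 upstream bases, the median identity was 47.7% and 35 pairs were at or above 70%. For ZNF813, the measured partners at or above that mark were ZNF83 (76.0%), ZNF765 (74.1%), ZNF611 (72.4%) and ZNF701 (70.6%). ZNF813 and ZNF765, which lie near each other at the far end of the cluster, were chosen for printing after their values were seen. Their 250 bases before the start are at chr19:53467483-53467732 and chr19:53394899-53395148 (GRCh38.p14, plus strand), 5′ to 3′, with capitals where a base differs from the other gene or has no partner there.
ZNF813: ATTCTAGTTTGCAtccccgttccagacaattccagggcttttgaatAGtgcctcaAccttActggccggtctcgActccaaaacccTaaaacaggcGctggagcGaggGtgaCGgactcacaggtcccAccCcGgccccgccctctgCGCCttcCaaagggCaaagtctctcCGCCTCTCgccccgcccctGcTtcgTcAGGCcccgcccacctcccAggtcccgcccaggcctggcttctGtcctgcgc
ZNF765: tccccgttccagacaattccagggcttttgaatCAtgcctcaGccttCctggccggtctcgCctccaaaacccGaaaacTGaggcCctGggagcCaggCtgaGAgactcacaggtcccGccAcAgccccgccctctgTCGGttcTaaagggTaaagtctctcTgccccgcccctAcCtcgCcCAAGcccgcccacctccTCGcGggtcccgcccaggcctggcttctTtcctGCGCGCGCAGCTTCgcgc
In each, 50 of the 250 bases differed from the other gene or had no partner there. The log2 change was 0.44 (95% interval 0.25 to 0.63) for ZNF813 and 0.0032 (-0.14 to 0.15) for the brightest probe set of ZNF765. The _x_at probe set of ZNF765, also bright at a level of 8.40, gave 0.16 ± 0.07, and the difference between the genes was not tested. The other measured partners of ZNF813 were at 0.14 (ZNF83), 0.07 (ZNF701) and 0.01 (ZNF611).

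Simple motifs were searched on both strands of the 44 member windows and of all 35116 windows. CCGGAAG, the core of ETS factor sites, was in 54.5% of member windows and 10.3% of all. Whole windows of 21 of 31 members held it. In the 250 bases before the start, in the first window listed per gene, only ZNF175, ZNF432, ZNF528, ZNF578 and ZNF677 did. GGGCGG, the core of SP1 sites, was in 65.9% against 45.0%. Others were CCAAT (29.5% against 34.6%), CACGTG, the E-box (4.55% against 7.26%), GCGCNTGCG, the NRF1 core (9.09% against 7.47%), AAGATGGCG, the YY1 core (4.55% against 1.75%), TGACGTCA, the cyclic AMP element (0 against 1.85%), and CTCGCGAG (0 against 1.02%). Matches of different motifs could overlap, and related promoters are not independent of each other. The 17 measured members with CCGGAAG had a median log2 change of 0.08 and the 9 without it 0.19. For GGGCGG the split was alike, at 0.09 in 20 measured members with it and 0.20 in 6 without. Both splits run along with probe set type. ZNF160, ZNF320, ZNF528, ZNF611, ZNF701 and ZNF808, read by _x_at probe sets, had both motifs. ZNF836, also _x_at, had GGGCGG alone. Members read by _x_at probe sets had a median change of 0.06, and those read by _at probe sets 0.16. The part of probe set type in the splits was not tested. The sole members with AAGATGGCG were the neighbours ZNF615 and ZNF614. Their 250 bases before the start are at chr19:52008212-52008461 and chr19:52028380-52028629 (GRCh38.p14, minus strand), with that motif, on either strand, in capitals.
ZNF615: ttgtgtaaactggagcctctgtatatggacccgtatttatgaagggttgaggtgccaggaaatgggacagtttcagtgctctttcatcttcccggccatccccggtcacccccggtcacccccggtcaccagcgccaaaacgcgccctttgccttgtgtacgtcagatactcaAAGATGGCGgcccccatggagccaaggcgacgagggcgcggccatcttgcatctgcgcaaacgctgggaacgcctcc
ZNF614: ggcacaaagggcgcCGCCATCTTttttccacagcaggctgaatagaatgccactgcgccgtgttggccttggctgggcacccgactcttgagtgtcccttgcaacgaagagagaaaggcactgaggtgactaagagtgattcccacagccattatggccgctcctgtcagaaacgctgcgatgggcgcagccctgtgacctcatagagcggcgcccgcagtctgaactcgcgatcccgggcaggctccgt
The motif is read on the printed strand in ZNF615 and on the other in ZNF614, and these windows were 45.5% identical, beside the median of 47.7%. ZNF615 rose by 0.31 and ZNF614 was at 0.16. A match is a letter pattern and was not measured as a bound site.

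The machinery that KRAB zinc finger proteins recruit was measured through its transcripts. Of 22 measured genes of this machinery, 0 were called higher (limma, 3 at an unadjusted p under 0.05) and 1 lower. At that unadjusted p, 2332 of all 19775 genes were higher. The median log2 change of the machinery was 0.08. The share called was 4.55%, where 5.84% of all genes were called. All 22 lay at or above the median level of all genes, and 9.14% of all genes at such levels were called. DAXX, a chaperone of histone H3.3 at silenced repeats, fell by 0.43 on the log2 scale (SE 0.07, limma's adjusted p = 0.0143). It was not called without DMSO replicate 2 or 3. TRIM28, the corepressor itself, was at 0.10 ± 0.09 and SETDB1 at -0.0014 ± 0.074, neither called. The 3 genes higher at an unadjusted p under 0.05, not called and named after their values were seen, were TASOR, a subunit of the HUSH silencing complex (0.25 ± 0.06), ATRX, the chromatin remodeller that partners DAXX (0.22 ± 0.07), and MORC2, a HUSH partner (0.15 ± 0.06).

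Zinc finger clusters elsewhere on chromosome 19, taken as lists of gene symbols whose bands were not checked against a map, were compared by their values under the same contrast. Of 30 measured genes at 19p13.2, 7 rose and 1 fell (26.7% called, where 5.84% of all genes were), with a median log2 change of 0.18. ZNF844 had the largest change there, 1.77 ± 0.17, followed by ZNF44 (1.07 ± 0.12, _x_at probe set), ZNF709 (1.04 ± 0.09) and ZNF627 (1.01 ± 0.06, _s_at). Of 25 at 19p12, 8 rose (32.0%) and 0 fell (0 lower at an unadjusted p under 0.05 too), with a median of 0.16. ZNF682 led with 1.24 ± 0.07, before ZNF101 (0.74 ± 0.07), ZNF431 (0.65 ± 0.09) and ZNF93 (0.56 ± 0.09, _s_at). That count was 3 without DMSO replicate 3 and between 4 and 7 without any other array. Of 28 at 19q13.12, 2 rose (7.14%), ZNF585B (0.44 ± 0.07) and ZNF420 (0.39 ± 0.06, _s_at), with a median of 0.06. None was called there without DMSO replicate 3 (0 of 28 by limma).

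Beside these, the largest change at 19q13.4 was 0.44, and 3 of 33 were called. No member reached a doubling, as 4 genes at 19p13.2 and 1 at 19p12 did. Whether the clusters differ was not tested, since the members of a cluster are no replicates of each other. Of 353 further genes with a ZNF symbol, 24 were called higher and 9 lower (9.35% called), with a median of 0.04.

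**Figure D5:**
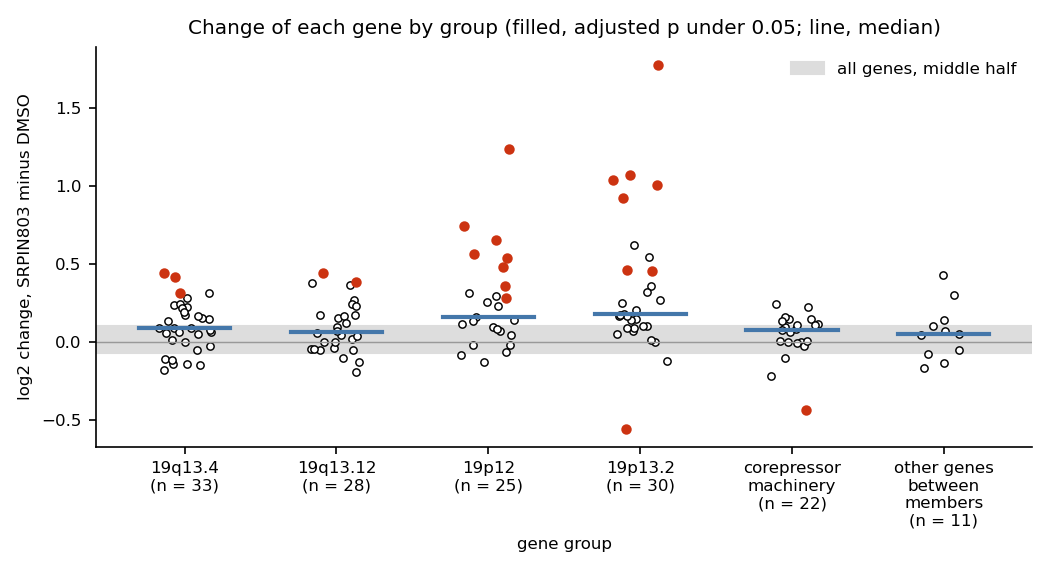
Log2 change of each gene (y axis) in the 19q13.4 genes, 3 other zinc finger clusters, the KRAB corepressor machinery and other genes lying among the members (x axis); filled points are called, blue lines medians, and the grey band the interquartile range of all genes. The 19q13.4 points stay between -0.18 and 0.44, while those at 19p13.2 reach 1.77 and those at 19p12 reach 1.24.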

How the data were processed

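RNA of 3 DMSO and 3 SRPIN803 samples of ARPE-19 cells was measured on Affymetrix arrays of 54675 probe sets, 62 of them controls. The authors deposited log2 values, 1 per probe set and array. The submitters' processing notes name RMA, without a version. RMA compresses the changes of dim probe sets. The log2 values were used as deposited. The platform's annotation named 1 gene for 41091 probe sets, several for 1801 and none for 11721. For 19775 genes the probe set of highest mean over 6 arrays was kept. SRPIN803 was set against DMSO by limma 3.58.1 (R 4.3.3; lmFit, eBayes, no covariate, two-sided), with Benjamini-Hochberg adjustment over these genes. Called means an adjusted p below 0.05. The ± of a log2 change is limma's SE, and intervals are at 95% confidence. A second fit ran over all 41091 probe sets. An exact permutation test of 3 against 3 cannot go below p = 0.1 and was not used. Promoter windows came from RefSeq (GRCh38.p14) and were aligned with Biopython 1.88; plots were drawn with matplotlib 3.10.9. The gene test was tested on simulated data. The replicate number, each array, dim genes, the choice of probe set, the normalization, the variance model, array weights and thresholds were varied.

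The members and gene lists were chosen with earlier results of these data known. Every measured member is named with its log2 change. Values by array are given for called members and for the 8 members of largest absolute change, beside a few named as chosen after their values were seen. Of other lists, up to 4 called genes of largest change are named, or the 2 of smallest p where none was called.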

Additional observations from a re-analysis of the deposited data

How the results depend on the processing

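The count of 3 members called higher became 1 with the replicate block (group plus replicate number), 1 among genes at or above the median level (16 members), 1 when adjusted over all probe sets and 0 at an adjusted p under 0.01. It ran from 0 to 2 without 1 array. Under the other alternatives it was 2 to 4, and 0 members were called lower under each alternative run. With the block, the adjusted p was 0.0502 for ZNF813 and 0.0582 for ZNF615. Whether array numbers pair the samples could not be settled from so few correlations. Deviations of same-numbered arrays correlated at 0.18, -0.06 and 0.11, and those of differently numbered arrays at -0.21 to 0.13. DMSO replicates 1 and 3 correlated best with their own number and DMSO replicate 2 with SRPIN803 replicate 3 (0.13). Adjusted over all probe sets, ZNF615 (0.0785) and ZNF610 (0.0564) lost their calls.

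Over all genes 1154 were called, and 689 with the block, 1944 among brighter genes, 1965 with an intensity trend, 285 and 1991 at adjusted p under 0.01 and 0.1, and 324 to 687 without 1 array. The 1 call in the corepressor machinery became 3 among brighter genes and with the trend, 2 at 0.1, 0 at 0.01 and without _s_at and _x_at probe sets, and 0 to 1 without 1 array. The 8 calls at 19p12 became 3 at 0.01 and 3 to 7 without 1 array. The 2 at 19q13.12 became 1 with the mean of all probe sets, 0 at 0.01, 7 at 0.1 and 0 to 2 without 1 array. Of the genes lying among the members, 1 was called with the mean of probe sets, with the trend and at 0.1.

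Signs turned in uncalled members. ZNF83, at 0.14 in its brightest probe set, was at -0.57 without _s_at and _x_at probe sets and at -0.22 with the mean of its probe sets. ZNF160 was at 0.11 without _x_at probe sets and also without both kinds. ZNF611 was at -5.53e-06 and ZNF765 at -0.0081 with array medians subtracted, and ZNF611 at -0.0052 with array weights. Without 1 array the ranges were -0.19 to 0.023 for ZNF160, -0.0044 to 0.11 for ZNF320, -0.0032 to 0.17 for ZNF331, -0.014 to 0.12 for ZNF600, -0.045 to 0.10 for ZNF611, -0.24 to 0.0091 for ZNF649, -0.015 to 0.10 for ZNF665, -0.030 to 0.16 for ZNF677, -0.073 to 0.0030 for ZNF702P and -0.020 to 0.045 for ZNF765. The cause of these shifts was not tested. The members' median change stayed between 0.08 and 0.14.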
